A study of Homo sapiens with 9 samples.

Results

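The expression of 10 genes of the interleukin 6 (IL-6) family and related growth cytokines was followed across 9 orthotopic tumors of murine anaplastic thyroid cancer (ATC). The 10 genes were taken by symbol, out of 17369 genes in the table, and all 10 had a value in every tumor. They comprise the ligands Il6, Il11, Lif, Clcf1 and Csf2, the receptor chains Il6ra, Il11ra1, Osmr and Il6st, and the transcription factor Stat3. The tumors fall into 3 groups of 3, namely original TBP3743 cells in B6129SF1 mice (original/B6129SF1), adapted TBP3743 cells in B6129SF1 mice (adapted/B6129SF1) and adapted TBP3743 cells in C57BL/6 mice (adapted/C57BL/6). TBP3743 is a single murine ATC line from B6129SF1 mice with a thyroid-specific mutant Braf allele and Trp53 deletion, which every group therefore carries, and the adapted cells had been passaged serially in C57BL/6 mice and were used from passage round 3. Hosts were immunocompetent female mice of 6 weeks, the cells were placed in the thyroid, and tumors were collected on day 14. The values are FPKM, that is, fragments scaled by transcript length and by sequencing output, so that levels can be set side by side between genes.

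IL-6 family cytokines signal through a shared receptor chain, gp130, which Il6st encodes. IL-6 and IL-11 first bind receptors of their own (IL-6 receptor alpha and IL-11 receptor alpha). LIF and oncostatin M signal through gp130 paired with the LIF or oncostatin M receptor. The chain gp130 then activates Janus kinases, and these phosphorylate STAT3, which drives genes of survival, proliferation and the acute phase. SOCS3 is induced by STAT3 and limits gp130 signalling. Csf2 encodes GM-CSF, a growth factor for myeloid cells that works through a different receptor, Csf2ra with the common beta chain Csf2rb. In tumors these cytokines can come from cancer cells, fibroblasts or immune cells. In RNA from whole tumors, fewer cells of a type and less RNA per cell cannot be told apart.

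The samples were checked before the genes were compared. The labels call the cells cancer epithelial, and the keratin genes Krt8 and Krt18 ranged from 153 to 615 FPKM and from 110 to 390 FPKM. Krt8 was 363 to 615 FPKM in original/B6129SF1, 153 to 283 FPKM in adapted/B6129SF1 and 221 to 241 FPKM in adapted/C57BL/6. The keratin genes Krt7 and Krt19 reached at most 2.27 and 2.10 FPKM, and the epithelial adhesion genes Epcam and Cdh1 at most 2.49 and 4.48 FPKM. Of the thyroid genes, the lineage factor Nkx2-1 stood at 23.5 to 44.5 FPKM, while the iodide transporter gene Slc5a5 and the thyrotropin receptor gene Tshr did not exceed 0.142 and 0.0703 FPKM. Skeletal muscle genes stood apart in 2 tumors. Summed over 13 genes they took 7.14% of the FPKM of adapted/B6129SF1 replicate 3 and 1.33% of that of adapted/C57BL/6 replicate 1, while no other tumor exceeded 0.156%. The absolute sequencing depth is unknown. Judged by the steps between low FPKM values, the tumors had approximately 0.960 to 1.35 times the depth of original/B6129SF1 replicate 1.

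The 10 genes formed 3 tiers of expression. Stat3 (mean over 9 tumors 42.2 FPKM), Il6st (30.9), Clcf1 (25.7), Il6ra (20.9) and Il11ra1 (19.4) were highest, Lif (4.30) and Osmr (3.14) were intermediate, and Il6 (0.462), Il11 (0.448) and Csf2 (0.399) were lowest. Within the top tier the neighbours Stat3 and Il6st, Il6st and Clcf1, Clcf1 and Il6ra, and Il6ra and Il11ra1 overlapped in their ranges over the tumors, as did Lif and Osmr, and Il6, Il11 and Csf2. The lowest Il11ra1 value, 15.3 FPKM, lay above the highest Lif value, 7.88 FPKM. The highest Il11 value, 1.44 FPKM, lay within the range of Osmr. In every tumor Il6ra and Il11ra1 were far above the transcripts of their own ligands.

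**Figure D1:**
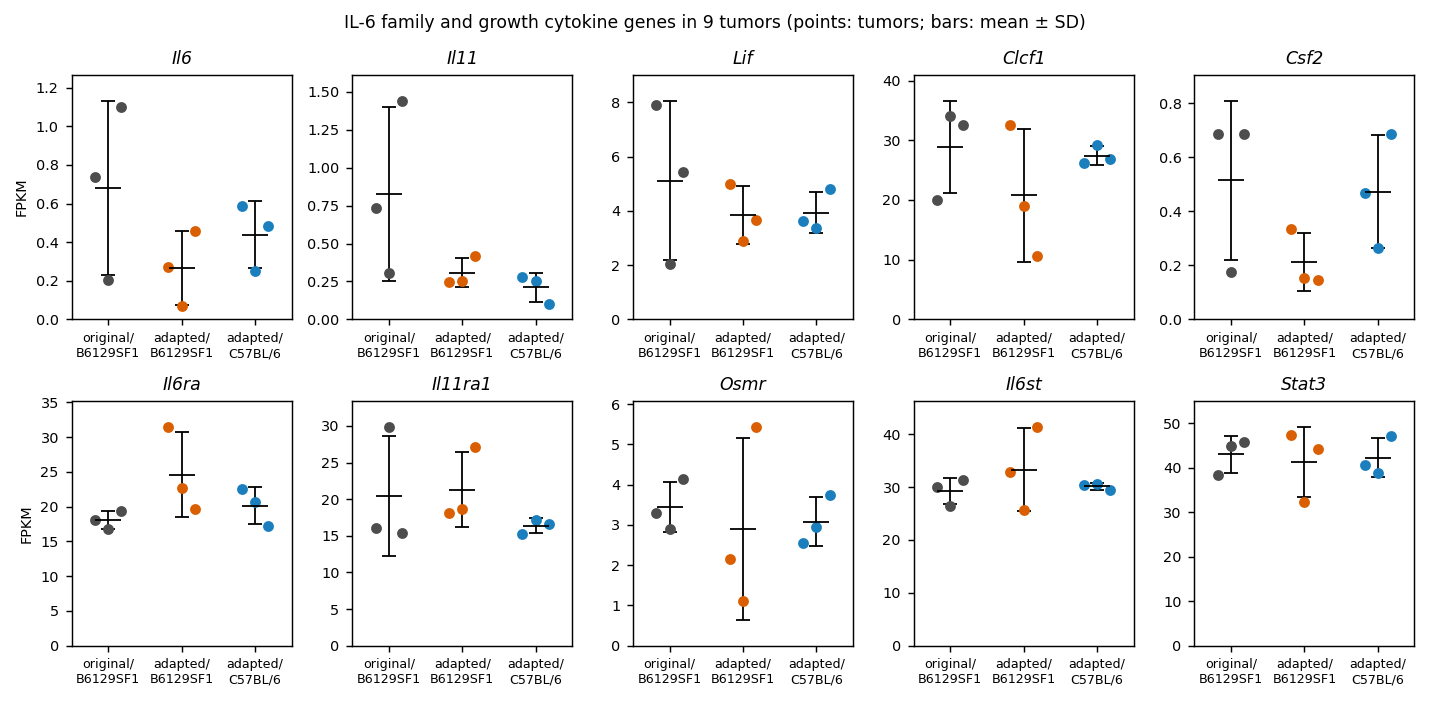
FPKM on a linear axis from 0, one panel per gene with its own scale, for each of the 10 genes in the 3 groups, with a point per tumor and bars for the mean and SD. Il6st and Stat3 vary least over the 9 tumors, whereas Il6, Il11 and Csf2 lie at or below 1.44 FPKM and the original/B6129SF1 tumors spread widely.

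Among the ligands, Il6 encodes IL-6 itself, which fibroblasts, macrophages and some carcinoma cells secrete. Its level was 0.739, 0.203 and 1.10 FPKM in original/B6129SF1 replicates 1 to 3, 0.269, 0.0712 and 0.458 FPKM in the adapted/B6129SF1 tumors, and 0.586, 0.249 and 0.482 FPKM in the adapted/C57BL/6 tumors. Replicates 1 and 3 of original/B6129SF1 were the highest of the 9 tumors, but replicate 2 of the same group was among the lowest, and the groups overlapped. The mean was 0.681 ± 0.452 FPKM (SD, n = 3) in original/B6129SF1, 0.266 ± 0.193 FPKM in adapted/B6129SF1 and 0.439 ± 0.173 FPKM in adapted/C57BL/6. The difference from original/B6129SF1 had an exact two-sided permutation p of 0.3 for adapted/B6129SF1 and 0.5 for adapted/C57BL/6, and 0.143 for both adapted groups. The pooled difference of -0.329 FPKM turned on single original/B6129SF1 tumors. It was -0.567 FPKM without replicate 2 (exact permutation p = 0.0357) and -0.119 FPKM without replicate 3 (exact permutation p = 0.571).

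Il11 encodes IL-11, a gp130 ligand made mainly by stromal cells. It was measured at 0.734, 0.305 and 1.44 FPKM in original/B6129SF1, at 0.250, 0.253 and 0.417 FPKM in adapted/B6129SF1 and at 0.277, 0.253 and 0.101 FPKM in adapted/C57BL/6. All adapted/C57BL/6 tumors were lower than all original/B6129SF1 tumors, as they were for 17.9% of the genes tested, and of the adapted/B6129SF1 tumors only replicate 3 lay inside the original/B6129SF1 range. For adapted/C57BL/6 against original/B6129SF1 the means were 0.210 ± 0.0953 and 0.827 ± 0.574 FPKM, with an exact two-sided permutation p of 0.1, the smallest that 3 tumors against 3 allow. With the adapted groups pooled the mean was 0.259 against 0.827 FPKM (exact permutation p = 0.0238, smallest possible 0.0119). This p stands among 12 such tests of Il6, Il11 and Csf2, and it was 0.0714 by the exact test without original/B6129SF1 replicate 1 and also without original/B6129SF1 replicate 3. The pooled difference of -0.568 FPKM was -0.614 FPKM without the former and -0.261 FPKM without the latter. When all 14520 genes with a value above 0 were fitted with limma, the adjusted p of Il11 for both adapted groups against original/B6129SF1 was 0.133. The lower Il11 of the adapted tumors therefore did not pass over all genes.

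Lif encodes leukemia inhibitory factor, which binds the LIF receptor together with gp130. The original/B6129SF1 tumors gave 7.88, 2.03 and 5.43 FPKM, the adapted/B6129SF1 tumors 5.0, 2.89 and 3.65 FPKM, and the adapted/C57BL/6 tumors 3.63, 3.36 and 4.80 FPKM. The highest and the lowest of the 9 values were both in original/B6129SF1, so both adapted groups lay inside its range. On the log2(FPKM + 1) scale Lif differed from original/B6129SF1 by -0.22 in adapted/B6129SF1 (95% CI -1.04 to 0.59, adjusted p = 0.721) and by -0.19 in adapted/C57BL/6 (95% CI -1.0 to 0.62, adjusted p = 0.789).

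Clcf1 encodes cardiotrophin-like cytokine factor 1, which binds the ciliary neurotrophic factor receptor. It was 20.0, 34.1 and 32.5 FPKM in original/B6129SF1, 32.6, 19.0 and 10.6 FPKM in adapted/B6129SF1, and 26.2, 29.2 and 26.8 FPKM in adapted/C57BL/6. The adapted/B6129SF1 tumors spread the most and held the lowest value, in the muscle-rich replicate 3, while the adapted/C57BL/6 tumors were close together. The difference from original/B6129SF1 was -0.55 in adapted/B6129SF1 (95% CI -1.34 to 0.24, adjusted p = 0.343) and -0.04 in adapted/C57BL/6 (95% CI -0.83 to 0.75, adjusted p = 0.964). Without adapted/B6129SF1 replicate 3, Clcf1 differed by -0.17 between adapted/B6129SF1 and original/B6129SF1, and without adapted/B6129SF1 replicate 1 by -0.93.

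Clcf1 was the most abundant transcript among 9 ligand genes in 9 of 9 tumors, with 52.1% to 81.9% of their summed FPKM. The 9 were Il6, Il11, Lif, Clcf1, Osm, Ctf1, Ctf2, Il27 and Il31, and Il31 was at 0 in every tumor. Ebi3, which is counted with the other gp130 ligand genes below, was not among them. Lif made up 4.86% to 23.1%, the cardiotrophin gene Ctf1 5.03% to 14.4% and the oncostatin M gene Osm 3.64% to 8.59%, and the order of these 3 differed between tumors. Il6 accounted for 0.260% to 2.40% and Il11 for 0.266% to 3.14%. The receptor gene Cntfr did not exceed 0.501 FPKM. The Clcf1 share is of RNA, and CLCF1 protein was not measured.

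Csf2 was 0.684, 0.174 and 0.684 FPKM in original/B6129SF1, 0.334, 0.152 and 0.146 FPKM in adapted/B6129SF1 and 0.468, 0.265 and 0.685 FPKM in adapted/C57BL/6. The lowest values were those of adapted/B6129SF1 replicates 2 and 3 and original/B6129SF1 replicate 2, and all groups overlapped. The means were 0.514 ± 0.295, 0.211 ± 0.107 and 0.473 ± 0.210 FPKM in the same order (SD, n = 3). The exact two-sided permutation p was 0.2 for adapted/B6129SF1 against original/B6129SF1, 1 for adapted/C57BL/6 against original/B6129SF1 and 0.2 for adapted/C57BL/6 against adapted/B6129SF1. In original/B6129SF1, replicate 2 had the lowest Il6, Il11, Lif and Csf2 of its group and the highest Clcf1, so the ligands did not vary together within that group.

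Il6ra and Il11ra1 varied less over the tumors than the ligands did, with a ratio of the highest to the lowest value of 1.88 and 1.95 against 3.21 for Clcf1 and 3.89 for Lif. Il6ra encodes the alpha chain that binds IL-6, both on the membrane and, after shedding, in soluble form. Its level was 18.0, 16.7 and 19.4 FPKM in original/B6129SF1, 31.4, 22.7 and 19.6 FPKM in adapted/B6129SF1, and 22.5, 20.7 and 17.3 FPKM in adapted/C57BL/6. Every adapted/B6129SF1 tumor was above every original/B6129SF1 tumor, with replicate 3 above by a narrow margin, and adapted/C57BL/6 overlapped both. Il6ra was 0.40 higher in adapted/B6129SF1 than in original/B6129SF1 on the log2(FPKM + 1) scale (95% CI 0.02 to 0.79), with an unadjusted limma p of 0.0425 and an adjusted p of 0.172. It was thus not called. The groups did not overlap in either direction for 29.6% of all genes tested in this comparison, and were higher without overlap for 13.6%. Without adapted/B6129SF1 replicate 1 the difference was 0.22. Myeloid cells express Il6ra, and the summed level of the 9 macrophage and monocyte markers measured was 2126 to 2727 FPKM in original/B6129SF1, 2728 to 4082 FPKM in adapted/B6129SF1 and 1731 to 3269 FPKM in adapted/C57BL/6, with no marker at 0 in any tumor. Its part in the Il6ra difference was not tested.

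Il11ra1 encodes the alpha chain for IL-11. It was 16.1, 29.8 and 15.4 FPKM in original/B6129SF1, 18.2, 18.6 and 27.2 FPKM in adapted/B6129SF1, and 15.3, 17.2 and 16.7 FPKM in adapted/C57BL/6. Single tumors, original/B6129SF1 replicate 2 and adapted/B6129SF1 replicate 3, stood high, and the other tumors lay close together. All adapted/C57BL/6 tumors were lower than all adapted/B6129SF1 tumors, as were those of 5.42% of all genes tested. The difference between the hosts of adapted cells was -0.34 (95% CI -0.90 to 0.22, adjusted p = 0.869), and -0.16 without adapted/B6129SF1 replicate 3. It was -0.11 without both muscle-rich tumors.

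Osmr encodes the receptor for oncostatin M, which stromal and epithelial cells carry. It was 3.29, 2.91 and 4.13 FPKM in original/B6129SF1, 2.15, 1.10 and 5.43 FPKM in adapted/B6129SF1, and 2.55, 2.94 and 3.74 FPKM in adapted/C57BL/6. Adapted/B6129SF1 held both the lowest and the highest value, the latter in replicate 3. Osmr differed from original/B6129SF1 by -0.34 in adapted/B6129SF1 (95% CI -1.14 to 0.46, adjusted p = 0.570) and by -0.13 in adapted/C57BL/6 (95% CI -0.93 to 0.68, adjusted p = 0.865). The oncostatin M transcript itself, Osm, was lower in every adapted/B6129SF1 tumor (1.81, 0.997 and 1.75 FPKM) than in every original/B6129SF1 tumor (2.502, 2.511 and 3.02 FPKM), by 0.56 on the log2 scale, with a limma adjusted p of 0.114. These groups did not overlap in either direction for 29.6% of all genes tested. The LIF receptor gene Lifr was 4.91, 5.27 and 8.14 FPKM in adapted/B6129SF1 against 2.13, 2.61 and 2.30 FPKM in original/B6129SF1 and 3.72, 0.970 and 1.91 FPKM in adapted/C57BL/6. Its difference of 1.06 between adapted/B6129SF1 and original/B6129SF1 did not pass over all genes (adjusted p = 0.0653), nor did the difference of -1.22 between adapted/C57BL/6 and adapted/B6129SF1 (adjusted p = 0.534).

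The shared chain and the transcription factor had the smallest ratio of the highest to the lowest value among the 10 genes, 1.61 for Il6st and 1.46 for Stat3. Il6st was 29.9, 26.5 and 31.3 FPKM in original/B6129SF1, 32.8, 25.7 and 41.4 FPKM in adapted/B6129SF1, and 30.5, 30.5 and 29.4 FPKM in adapted/C57BL/6. Stat3 was 38.3, 44.9 and 45.8 FPKM in original/B6129SF1, 47.3, 32.4 and 44.2 FPKM in adapted/B6129SF1, and 40.6, 38.9 and 47.3 FPKM in adapted/C57BL/6. All groups overlapped for both genes. The intervals of the difference from original/B6129SF1 were -0.19 to 0.51 in adapted/B6129SF1 and -0.31 to 0.40 in adapted/C57BL/6 for Il6st, and -0.41 to 0.27 and -0.37 to 0.32 for Stat3, so that differences of 1 on the log2 scale lay outside them. The intervals of Lif, Clcf1 and Osmr in adapted/B6129SF1 reached below -1. The spread within groups on the log2 scale was larger for Lif, Clcf1 and Osmr than for 93.8%, 93.6% and 93.5% of all genes tested, against 57.2% for Il6st and 55.5% for Stat3. Phosphorylated STAT3, the active form, is not seen in RNA.

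Over the genes of the family as a whole, 7 of the 10 (Il6ra, Il6st, Lif, Osmr, Il11ra1, Clcf1 and Stat3) reached 1 FPKM in at least 3 tumors and entered the limma fit over 10263 genes. Il6, Il11 and Csf2 did not. A gene was called differentially expressed (DEG) where its adjusted p was under 0.05 and its log2 fold change was beyond 1 in either direction. On that rule, limma called 0 of the 7 in adapted/B6129SF1 against original/B6129SF1, where 3.22% of all genes tested were DEGs. It also called 0 of the 7 in adapted/C57BL/6 against original/B6129SF1 (3.09% of all genes), 0 of the 7 in adapted/C57BL/6 against adapted/B6129SF1 (0.0292%) and 0 of the 7 for both adapted groups against original/B6129SF1 (3.39%). By adjusted p alone the counts were again 0 of the 7 in each comparison, where 8.28%, 6.75%, 0.0292% and 11.9% of all genes passed in that order. At an unadjusted p under 0.05 the count was 1 of the 7 (Il6ra) in adapted/B6129SF1 against original/B6129SF1, where 26.5% of all genes passed, and 0 of the 7 in the others, where 24.4%, 6.27% and 29.4% passed. The median difference of the 7 genes was -0.07, -0.04, 0.04 and -0.07 in the same order, beside -0.03, -0.03, 0.01 and -0.03 over all genes tested. The comparisons with original/B6129SF1 share its 3 tumors and are not independent, and adapted/C57BL/6 differs from original/B6129SF1 in both cells and host.

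**Figure D2:**
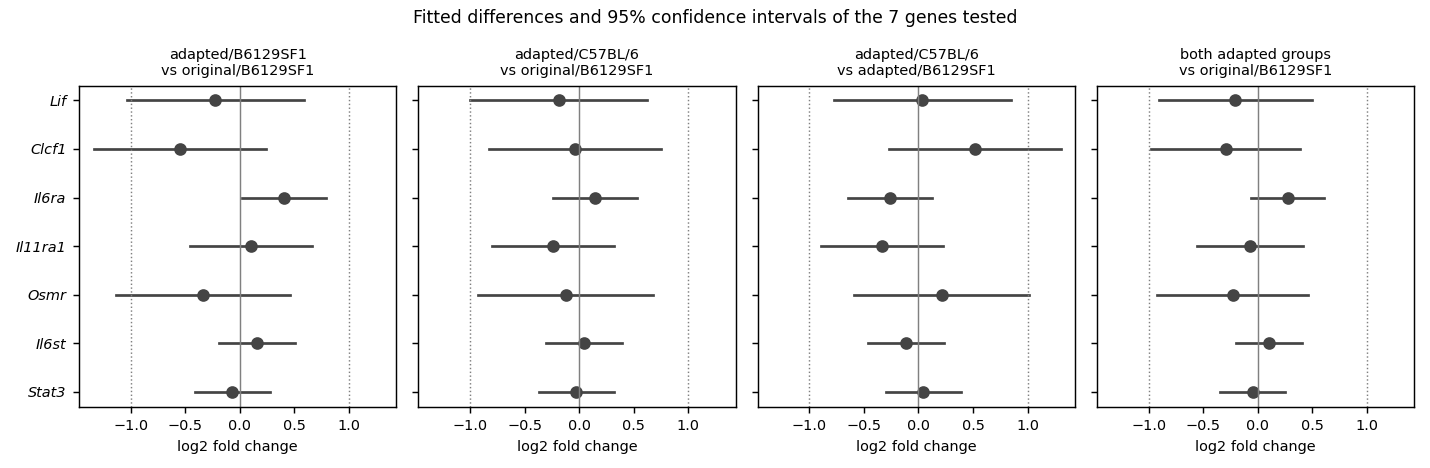
Log2 fold change, as a difference in log2(FPKM + 1), of the 7 genes that entered the fit, one panel per comparison, with points for the estimate, bars for the 95% confidence interval and dotted lines at -1 and 1. All intervals include 0 except that of Il6ra in adapted/B6129SF1 against original/B6129SF1 (0.02 to 0.79), and those of Il6st and Stat3 are the narrowest.

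Around these genes, the pathway was followed in lists of other ligands, receptors, kinases, inhibitors and targets. Of the 3 other gp130 ligand genes and the 2 other receptor genes that entered the fit, limma called 0 by adjusted p in every comparison, with 3 and 2 at an unadjusted p under 0.05 in adapted/B6129SF1 against original/B6129SF1, 0 and 1 in adapted/C57BL/6 against original/B6129SF1, and 1 and 1 both between the adapted groups and for the adapted groups pooled. Over all genes tested, the share at an unadjusted p under 0.05 was 26.5%, 24.4%, 6.27% and 29.4% in that order. Of the 5 Janus kinase and STAT genes on the list, Jak1, Jak2, Tyk2, Stat5a and Stat5b, which carry the signal from the receptor chains to the nucleus, limma called 0 by adjusted p in any comparison. At an unadjusted p under 0.05 there was 1 in adapted/B6129SF1 and 1 in adapted/C57BL/6 against original/B6129SF1, 0 between the adapted groups and 2 for the adapted groups pooled. The shares over all genes just given apply to these counts too. Stat3 differed from original/B6129SF1 by -0.07 and -0.03 in the adapted groups.

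Inhibitors of gp130 signalling and the proteases that shed the IL-6 receptor formed a list of 10 genes. Limma called 0 of the 10 by adjusted p in any of the 4 comparisons, with 2, 1, 0 and 1 at an unadjusted p under 0.05. Over all genes tested, 26.5%, 24.4%, 6.27% and 29.4% reached that level in the same order. Socs3, the feedback inhibitor that STAT3 induces, was 40.5, 41.5 and 50.8 FPKM in original/B6129SF1, 40.9, 33.5 and 37.8 FPKM in adapted/B6129SF1, and 40.8, 32.6 and 40.7 FPKM in adapted/C57BL/6, so that no adapted tumor exceeded 40.9 FPKM and the groups overlapped. Its difference was -0.23 in adapted/B6129SF1 (adjusted p = 0.295) and -0.21 in adapted/C57BL/6 (adjusted p = 0.364). The sheddase genes Adam10 and Adam17 ranged from 47.0 to 55.6 FPKM and from 20.9 to 32.9 FPKM.

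Genes commonly listed as STAT3 targets were followed next. Of the 21 in the table, 0 were DEGs and 0 passed by adjusted p with limma in the 3 pairs of groups, with 4, 4 and 5 at an unadjusted p under 0.05 for adapted/B6129SF1 and adapted/C57BL/6 against original/B6129SF1 and for adapted/C57BL/6 against adapted/B6129SF1. The share of the 21 was below the 26.5% and 24.4% of all genes in the comparisons with original/B6129SF1 and above the 6.27% of all genes between the hosts of adapted cells. Their median difference was 0.03, -0.21 and -0.20 in that order. In adapted/B6129SF1 against original/B6129SF1 the differences ran from -0.91 for Fosl1, an AP-1 transcription factor, to 2.23 for Saa3, an acute-phase gene (adjusted p = 0.205). Saa3 was 2.86, 42.2 and 28.1 FPKM in original/B6129SF1, 130, 19.1 and 190 FPKM in adapted/B6129SF1, and 9.75, 3.90 and 7.20 FPKM in adapted/C57BL/6. All adapted/C57BL/6 tumors were below all adapted/B6129SF1 tumors, as were those of 5.42% of all genes tested. The difference was -3.40 on the log2 scale with a limma adjusted p of 0.602. Fosl1 alone passed by adjusted p when the adapted groups were pooled, as did 11.9% of all genes tested. It was 81.7, 41.4 and 74.4 FPKM in original/B6129SF1, 33.3, 37.8 and 29.1 FPKM in adapted/B6129SF1, and 41.0, 32.0 and 45.0 FPKM in adapted/C57BL/6, a difference of -0.80 with an adjusted p of 0.0454. That call was lost when any 1 tumor other than original/B6129SF1 replicate 2 was left out (adjusted p 0.0599 to 0.165), while the difference itself stayed between -0.61 and -0.85. Without original/B6129SF1 replicate 2, the low tumor of its group, Fosl1 also passed in adapted/B6129SF1 (-1.21, adjusted p = 0.0132) and in adapted/C57BL/6 (-0.98, adjusted p = 0.0228).

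**Figure D3:**
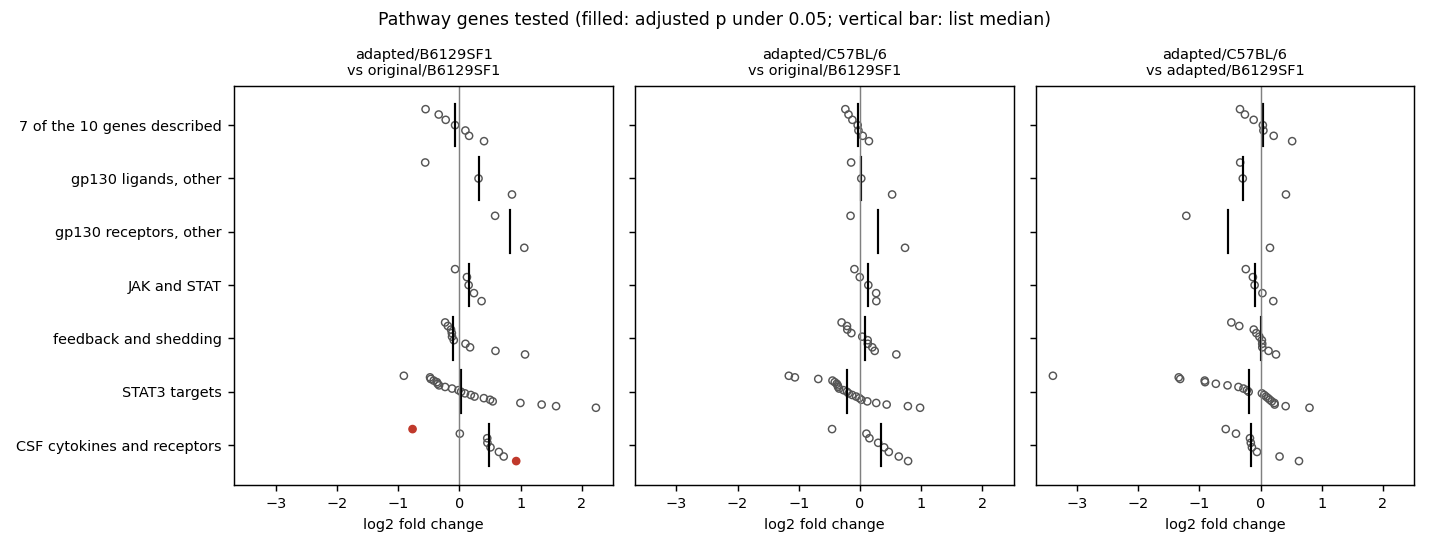
Log2 fold change of each tested gene by list, one panel per pair of groups, with a circle per gene, filled where the adjusted p was under 0.05, and a vertical bar at the median of the list. The filled circles are Il34 (-0.77) and Csf2ra (0.93) in adapted/B6129SF1 against original/B6129SF1.

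On the colony-stimulating factor side, the ligands of the macrophage receptor were far more abundant than Csf2. Csf1, which encodes M-CSF, ranged from 116 to 252 FPKM, and Il34, the second ligand of the receptor encoded by Csf1r, from 52.5 to 125 FPKM. Csf3 (G-CSF) did not exceed 0.152 FPKM and Il3 was listed at 0 in every tumor. Csf1 was 116 to 135 FPKM in original/B6129SF1, 117 to 151 FPKM in adapted/B6129SF1 and 151 to 252 FPKM in adapted/C57BL/6. It differed from original/B6129SF1 by 0.01 in adapted/B6129SF1 (limma adjusted p = 0.986) and by 0.63 in adapted/C57BL/6 (limma adjusted p = 0.0772). Il34 fell in adapted/B6129SF1. It was 97.5, 100.1 and 124.9 FPKM in original/B6129SF1, 77.0, 60.0 and 52.5 FPKM in adapted/B6129SF1, and 70.8, 88.3 and 74.5 FPKM in adapted/C57BL/6. Every adapted tumor was lower than every original/B6129SF1 tumor. Between adapted/B6129SF1 and original/B6129SF1, 29.6% of all genes tested did not overlap in either direction. Lower without overlap in adapted/C57BL/6 than in original/B6129SF1 were 17.9%. Il34 differed from original/B6129SF1 by -0.77 in adapted/B6129SF1 (adjusted p = 0.0253) and by -0.46 in adapted/C57BL/6 (adjusted p = 0.129). Csf2ra, the GM-CSF receptor alpha chain of myeloid cells, was 15.9, 15.2 and 21.4 FPKM in original/B6129SF1, 30.1, 34.9 and 37.0 FPKM in adapted/B6129SF1, and 33.9, 21.6 and 39.0 FPKM in adapted/C57BL/6. It rose by 0.93 in adapted/B6129SF1 (limma adjusted p = 0.0345), higher without overlap, as were 13.6% of all genes tested. In adapted/C57BL/6 it was 0.79 higher (limma adjusted p = 0.0630). The macrophage marker sums given with Il6ra were also higher in adapted/B6129SF1, narrowly so between the nearest tumors (2728 against 2727 FPKM). Of the 9 markers, 8 were higher there and Mrc1 was lower (-0.69). In adapted/C57BL/6 the sums overlapped those of original/B6129SF1. The part of these markers in the Csf2ra difference was not tested.

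With 1 tumor fewer, several of the Il34 and Csf2ra calls were lost while the differences stayed near those reported. In adapted/B6129SF1 against original/B6129SF1, the adjusted p of Il34 was 0.0589 without original/B6129SF1 replicate 1, 0.0905 without original/B6129SF1 replicate 3, 0.0734 without adapted/B6129SF1 replicate 2 and 0.0622 without adapted/B6129SF1 replicate 3, and that of Csf2ra was between 0.0501 and 0.111 when any 1 of the 6 tumors of these groups was left out. The difference itself stayed between -0.64 and -0.92 for Il34 and between 0.84 and 1.07 for Csf2ra. With the adapted groups pooled, Il34 differed by -0.61 (adjusted p = 0.0265) and Csf2ra by 0.86 (adjusted p = 0.0220). With 1 tumor left out, the pooled differences were -0.50 to -0.69 for Il34 and 0.77 to 1.0 for Csf2ra. The pooled Il34 call was lost without any 1 tumor other than adapted/B6129SF1 replicates 1 and 3 and adapted/C57BL/6 replicate 2 (adjusted p 0.0527 to 0.109), and the pooled Csf2ra call was lost without original/B6129SF1 replicate 1 (adjusted p = 0.0884) or replicate 2 (adjusted p = 0.0736). In adapted/C57BL/6 against original/B6129SF1, Csf2ra passed without adapted/C57BL/6 replicate 2 (1.03, adjusted p = 0.0201). Of the 8 genes tested on this list, 1 rose and 1 fell by adjusted p in adapted/B6129SF1 (6 at an unadjusted p under 0.05) and also with the adapted groups pooled (5 at an unadjusted p under 0.05). With limma, 0 passed in adapted/C57BL/6 against original/B6129SF1 (3 at an unadjusted p under 0.05) and 0 passed between the adapted groups (1 at an unadjusted p under 0.05). Over all genes tested, 8.28%, 11.9%, 6.75% and 0.0292% passed by adjusted p in the order of these counts. At an unadjusted p under 0.05 the shares were 26.5%, 29.4%, 24.4% and 6.27%.

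**Figure D4:**
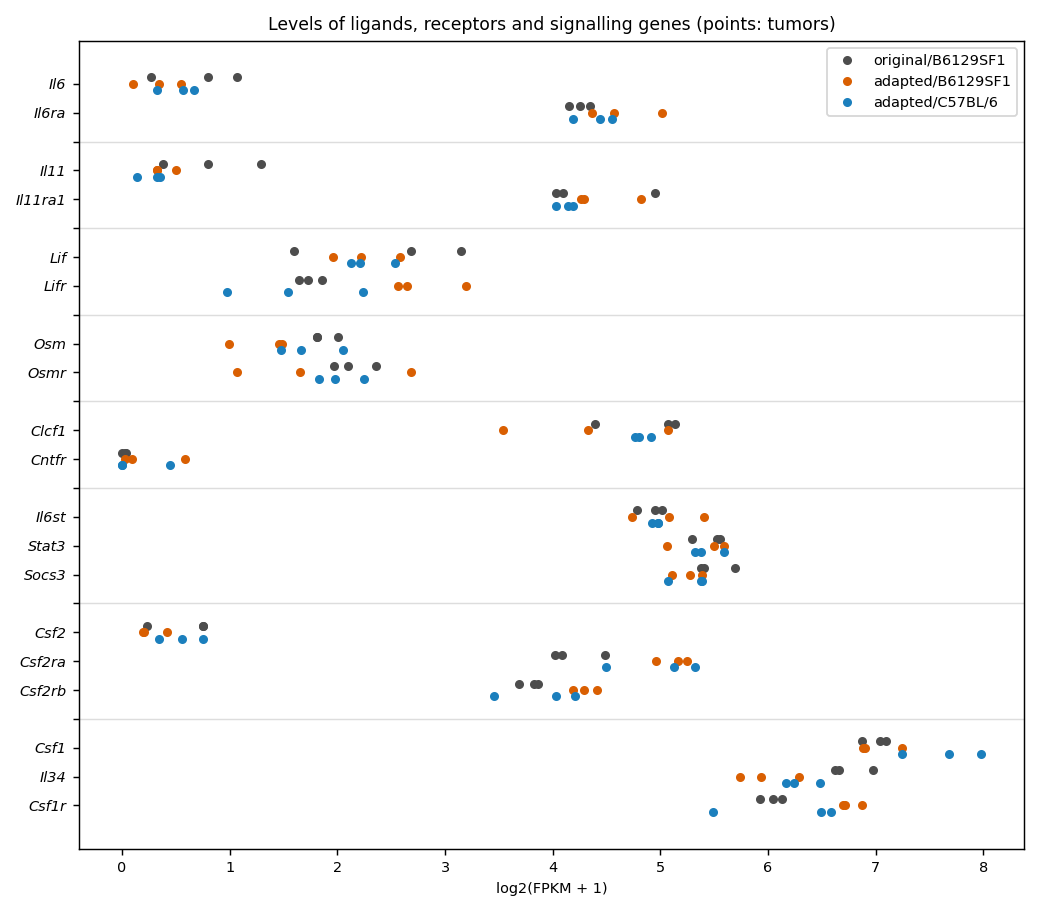
Level as log2(FPKM + 1) of ligands, their receptor chains and signalling genes, with a point per tumor and the groups in color. Il6 and Il11 lie far left of Il6ra and Il11ra1 in every tumor.

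Between the hosts of adapted cells, adapted/C57BL/6 against adapted/B6129SF1, 0 genes of the ligand, receptor, kinase, inhibitor, target and colony-stimulating factor lists passed by adjusted p with limma, where 3 of 10263 genes passed in all. Among the 7 fitted genes, the largest differences on the log2(FPKM + 1) scale were 0.51 for Clcf1 (95% CI -0.27 to 1.30, adjusted p = 0.867) and -0.34 for Il11ra1. Without adapted/B6129SF1 replicate 3 they were 0.13 and -0.16, and without adapted/B6129SF1 replicate 1 the Clcf1 difference was 0.89. Of the genes outside the fit, the mean of Csf2 was 0.473 against 0.211 FPKM and that of Il6 was 0.439 against 0.266 FPKM, larger in ratio than Clcf1 at 27.4 against 20.8 FPKM, with exact permutation p of 0.2 for Csf2 and 0.3 for Il6. The intervals for Stat3 (-0.30 to 0.39) and Il6st (-0.47 to 0.24) again lay inside 1 on the log2 scale.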

How the data were processed

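RNA from 9 tumors, 3 per group, was sequenced by the authors as paired-end reads, aligned to the mouse genome (mm10) with HISAT2 and deposited as one table of FPKM values made with Cuffnorm for all tumors together. The gene annotation and any filter are not given in the sources used here. The labels name the organism as human, but the line, the hosts, the build and the gene symbols are murine, and genes are given by symbol without coordinates.

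FPKM values are not counts, so no count test was used. A log2 fold change here is a difference in log2(FPKM + 1), a scale on which changes of genes with low FPKM are understated. The 10263 of 17369 genes that reached 1 FPKM in 3 or more tumors entered one model of the 3 groups in limma 3.58.1 (R 4.3.3, eBayes with trend, two-sided), and p-values were adjusted over all of them by the Benjamini-Hochberg method. The DEG threshold was an adjusted p under 0.05 together with a log2 fold change beyond 1 in either direction. Il6, Il11 and Csf2 fell below the filter and were compared by exact two-sided permutation tests of mean FPKM. The limma p-values rest on a within-group spread for each gene that is pooled over all tumors and moderated across genes. The permutation p-values rest on reassigning tumors to groups. With 3 tumors a group, the number of tumors limits the precision. The procedure was tested on simulated data.

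The 10 genes and all lists were chosen with earlier results of these data known. By the naming rule, the text names the 10 genes and pathway list genes that were DEGs or give a range. The rule did not cover the cell type markers, some of which were DEGs against original/B6129SF1. In adapted/B6129SF1 these included Fap, Ccr2 and Cd3g (higher) and Krt8 (lower), where 3.22% of all genes tested were DEGs. In adapted/C57BL/6 they included Thy1, Cd3g and Cd2 (higher), where 3.09% were. Other list genes were named after their values were seen. Cntf, Timp1, Adgre1 and Trac were not analysed here, and some pathway genes are not reported here, so that the list counts do not cover the whole pathway. Alternatives were no or a stricter filter (5 FPKM), a pseudocount of 0.1, 2 other scalings, only the groups compared, other variance priors, a replicate block, each tumor left out, and both muscle-rich tumors left out.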

Additional observations from a re-analysis of the deposited data

How the results depend on the processing

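The count of the 7 fitted genes called by limma was 0 in each of the 4 comparisons under every alternative run. Osmr was not fitted with the filter of 5 FPKM. The lowest adjusted p was 0.0829, for Osmr in adapted/B6129SF1 against original/B6129SF1 with 1 tumor left out (0.570 as reported). As reported, the lowest was 0.172, for Il6ra in the same comparison. Of 672 alternative values for the 10 genes, 639 kept their direction and their side of 0.05. The exact tests of Il6, Il11 and Csf2 between pairs of groups are among them. Their smallest possible p is 0.1, so their side of 0.05 was fixed in advance. Without both muscle-rich tumors, the log2 difference of Il6st was -0.0074 in adapted/B6129SF1 against original/B6129SF1 and 0.043 in adapted/C57BL/6 against adapted/B6129SF1, and that of Il11ra1 was -0.082 in adapted/B6129SF1 against original/B6129SF1, each of opposite sign to the value reported. With each tumor left out in turn, some differences changed sign, both near 0 and as large as -0.34 for Osmr in adapted/B6129SF1 against original/B6129SF1. In adapted/B6129SF1 against original/B6129SF1 they ranged from -0.0074 to 0.33 for Il6st, from -0.66 to 0.11 for Lif, from -0.78 to 0.029 for Osmr, from -0.082 to 0.39 for Il11ra1 and from -0.17 to 0.091 for Stat3. In adapted/C57BL/6 against original/B6129SF1 they ranged from -0.023 to 0.093 for Il6st, from -0.63 to 0.15 for Lif, from -0.40 to 0.054 for Il11ra1, from -0.27 to 0.10 for Clcf1 and from -0.11 to 0.030 for Stat3, and from -0.211 to 0.063 FPKM for Csf2. In adapted/C57BL/6 against adapted/B6129SF1 they ranged from -0.28 to 0.051 for Il6st, from -0.11 to 0.20 for Lif, from -0.15 to 0.65 for Osmr, from -0.12 to 0.15 for Stat3 and from -0.31 to 0.10 for Csf2ra. For both adapted groups against original/B6129SF1 they ranged from -0.65 to 0.13 for Lif, from -0.23 to 0.22 for Il11ra1 and from -0.13 to 0.032 for Stat3. The cause was not tested. The adjusted p of Il34 in adapted/B6129SF1 was 0.0558 with only the groups compared and 0.0764 without both muscle-rich tumors, and that of Csf2ra was 0.0584 with no filter on low values and 0.103 without both muscle-rich tumors. For both adapted groups against original/B6129SF1, the adjusted p without both muscle-rich tumors was 0.0633 for Il34, 0.0626 for Csf2ra and 0.0970 for Fosl1, and that of Fosl1 was 0.0717 with no filter and 0.0530 with quantile normalization. Of 9 correlations between same-numbered tumors of different groups, 3 were over 0.1 (-0.388 to 0.614). With 3 tumors a group and no different-numbered pairs beside them, these cannot settle whether the replicate numbers paired the tumors. With the replicate block the count of the 7 genes called stayed at 0 in each comparison, and the adjusted p of Il34 was 0.0708 in adapted/B6129SF1 and 0.0688 for both adapted groups, where that of Fosl1 was 0.0645. With 3 tumors a group and no counts, depth cannot be weighed, and differences in Il6, Il11 and Csf2 at these low levels may be too small to detect.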
